A study of Mus musculus with 24 samples.

Results

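Interferon response genes are the genes that a cell switches on when an interferon binds its surface receptor. A list of 33 of them, drawn up by name with earlier results of these data known, was read across the 24 mouse libraries of the series. All 33 were found by their symbol among the 23283 genes of the deposited table. The list holds 4 signalling transcription factors, 3 RNA sensors, 3 IFIT genes, 4 OAS genes, 3 genes of the ISG15 system, 5 other antiviral effectors, 2 guanylate-binding GTPases, 2 PARP genes, 1 chemokine and 6 other induced genes.

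The series measured RNA of cells that divide at different speeds around reprogramming to pluripotency. Fast MEF and slow MEF (4 libraries each) were mouse embryonic fibroblasts that had spent 6 days with doxycycline, which switched on the Yamanaka reprogramming factors, in serum medium with LIF. They were parted by how far 48 hours of division had diluted the dye CFSE. The iPS group (4 libraries) was factor-independent induced pluripotent stem cells grown in the same medium without doxycycline and gated on an Oct4 reporter, and the labels call it fast cycling. Fast GMP (5 libraries) and slow GMP (3 libraries) were granulocyte monocyte progenitors, blood precursors of neutrophils and monocytes, grown with 4 cytokines in serum-free medium and parted after 24 hours of CFSE dilution. Bulk MEF (4 libraries) was the untreated fibroblast group, grown in a plainer serum medium without LIF or doxycycline, which the labels call slow cycling and unsorted by dye. Medium, doxycycline, induced factors and sort all differ between bulk MEF and the 2 induced MEF groups, so their parts in a difference from bulk MEF cannot be told apart. Each library came from the cytoplasmic RNA of 1000 cells in a well, and nothing says that replicates were separate animals or cultures. The p-values therefore cover only how these libraries vary, and that variation may be technical.

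Type I interferons bind a receptor made of Ifnar1 and Ifnar2, whose kinases Jak1 and Tyk2 phosphorylate Stat2. Stat2 with Irf9 is part of a complex that binds the interferon-stimulated response element (ISRE) in the promoters of the genes listed here. Gamma interferon uses another receptor, Ifngr1 with Ifngr2, and the kinases Jak1 and Jak2, and acts through a shorter site called GAS. In fibroblasts this pathway is best known as the defence against viruses, and pluripotent stem cells are known to answer interferon weakly.

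Promoter windows of 300 bases (250 before and 50 after the start site, RefSeq, GRCm38.p6) could be matched by symbol for 24 of the 33 genes, in 31 windows. The ISRE was searched on both strands as GAAA, any 2 bases and GAAA, and the GAS as TTCNNNGAA, which reads the same on both strands. ISRE letters stood in 14 of the 31 windows (45.2%), each of another gene, against 3.44% of all 32851 windows of that length. GAS letters stood in 6 of the 31 windows (19.4%), against 8.3% of all windows. Below are the 160 bases before the start site of 8 genes whose values carry the results, in lower case, 5′ to 3′ on the gene's strand, with ISRE letters in capitals. Neighbouring matches may overlap and then form 1 run of capitals. Ifit1, Ifit3 and Isg15 were higher in slow MEF than in bulk MEF and hold the letters, while Irf7 and Oasl2 were higher there too without holding them:
Isg15, chr4:156200819-156200978, minus strand: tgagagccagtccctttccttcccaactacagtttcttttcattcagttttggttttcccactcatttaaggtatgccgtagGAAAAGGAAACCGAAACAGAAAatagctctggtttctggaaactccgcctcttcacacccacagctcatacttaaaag
Ifit1, chr19:34640729-34640888, plus strand: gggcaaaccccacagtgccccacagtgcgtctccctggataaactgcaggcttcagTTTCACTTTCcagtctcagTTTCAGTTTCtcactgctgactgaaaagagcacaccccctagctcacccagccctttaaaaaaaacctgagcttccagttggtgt
Ifit3, chr19:34583369-34583528, plus strand: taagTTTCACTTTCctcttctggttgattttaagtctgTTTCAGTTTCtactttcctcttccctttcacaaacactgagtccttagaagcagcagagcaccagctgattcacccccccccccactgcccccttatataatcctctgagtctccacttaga
Irf7, chr7:141266425-141266584, minus strand: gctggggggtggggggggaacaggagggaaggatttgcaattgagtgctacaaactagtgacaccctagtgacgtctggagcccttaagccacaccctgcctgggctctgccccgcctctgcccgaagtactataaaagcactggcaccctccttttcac
Oasl2, chr5:114896774-114896933, plus strand: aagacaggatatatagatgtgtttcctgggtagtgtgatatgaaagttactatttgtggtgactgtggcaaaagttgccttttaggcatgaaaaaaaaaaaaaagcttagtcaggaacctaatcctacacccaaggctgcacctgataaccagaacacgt
The other 3 were higher in iPS cells than in bulk MEF, Oas1a and Oas3 with ISRE letters and Trim25 without:
Oas1a, chr5:120907526-120907685, minus strand: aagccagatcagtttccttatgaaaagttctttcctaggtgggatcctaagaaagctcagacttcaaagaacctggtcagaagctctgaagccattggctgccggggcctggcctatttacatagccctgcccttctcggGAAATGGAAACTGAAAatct
Oas3, chr5:120777660-120777819, minus strand: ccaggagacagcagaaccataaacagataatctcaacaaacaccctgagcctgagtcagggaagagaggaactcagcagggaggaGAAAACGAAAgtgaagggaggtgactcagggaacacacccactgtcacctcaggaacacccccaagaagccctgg
Trim25, chr11:88999243-88999402, plus strand: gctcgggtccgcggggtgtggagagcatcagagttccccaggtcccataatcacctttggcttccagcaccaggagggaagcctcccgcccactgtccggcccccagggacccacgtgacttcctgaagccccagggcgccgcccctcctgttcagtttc

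A match is only a description of the letters, and a window without one says nothing of a site elsewhere. Among the genes with a window, the letters stood in 6 of the 11 called lower in fast MEF against slow MEF and in 8 of the other 13.

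Total counts were 2098846 to 4411526 in the 8 GMP libraries and 4937453 to 18648132 in the other 16. Rn45s and Lars2, which collect ribosomal RNA reads, took 19.9% to 48.9% of the GMP counts and 3.05% to 11.7% elsewhere, and libraries correlated with the others of their group at a median of 0.664 to 0.804 in GMP and 0.909 to 0.967 elsewhere. The labelled cell types carried their own markers: the 12 pluripotency markers summed to 3007 to 4454 CPM in iPS cells, the 12 GMP markers to 5704 to 27210 CPM in GMP, and the 12 fibroblast markers to 42370 to 83080 CPM in slow MEF and 23630 to 44020 CPM in bulk MEF. In fast MEF the fibroblast markers reached only 2168 to 5290 CPM, while 7 keratinocyte markers summed to 10570 to 17730 CPM. In that group Krt14, Krt6a and Sfn averaged 9869, 2863 and 2800 CPM, and Dsg3 averaged 25.3 CPM. Krt5, Krt15 and Trp63 averaged only 0.593, 0.621 and 0.259 CPM. Krt15 and Trp63 averaged more in slow MEF, at 17.0 and 0.443 CPM. Here CPM is a count scaled to a library of 1000000 counts, with edgeR's TMM factors over all 24 libraries. In sorted bulk samples, fewer cells that express a gene and less of its RNA per cell cannot be told apart.

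Slow MEF were the group in which most of the 33 genes stood highest. By group mean, 17 of them were highest in slow MEF, 7 in slow GMP, 5 in fast GMP, 2 in iPS cells, 1 in fast MEF and 1 in bulk MEF. The summed level of the 33 genes was 102 to 180 CPM in fast MEF, 375 to 548 CPM in slow MEF, 164 to 225 CPM in iPS cells, 186 to 468 CPM in fast GMP, 308 to 794 CPM in slow GMP and 90.1 to 175 CPM in bulk MEF. The slow MEF libraries thus lay above every fast MEF, iPS and bulk MEF library, and among the GMP libraries the values spread over both ranges. A sum rests most on the best counted genes. Trim25 alone averaged 92.4 CPM in iPS cells and 53.55 CPM in fast MEF, against 26.6 CPM in slow MEF and 16.45 CPM in bulk MEF. Every slow MEF library had counts for at least 31 of the 33 genes, against 25 to 29 genes in fast MEF, 23 to 25 in iPS cells, 15 to 32 in fast GMP, 20 to 26 in slow GMP and 20 to 24 in bulk MEF.

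**Figure D1:**
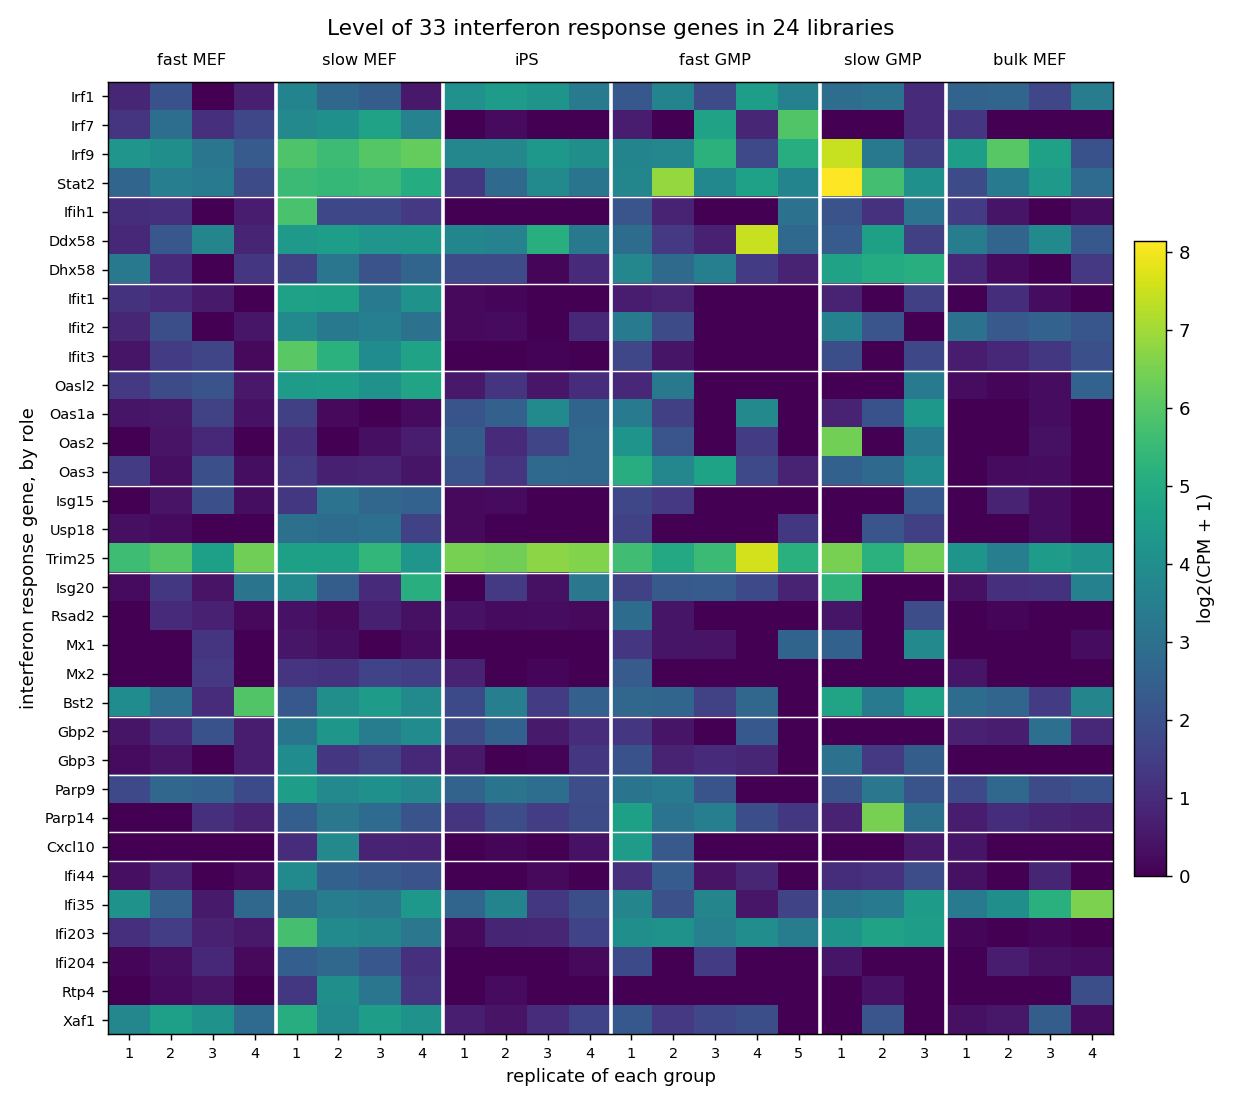
Each cell is the level of 1 gene in 1 library as log2(CPM + 1), with the genes down the page by role and the replicates of each group along it. The slow MEF columns are brighter for most genes outside the OAS block, while Trim25 is bright in iPS cells and the GMP columns differ from library to library.

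Fast MEF had less RNA of the interferon response genes than slow MEF from the same induced culture conditions. Of the 33, 16 were lower in fast MEF with none higher at an adjusted p under 0.05 (edgeR quasi-likelihood test, Benjamini-Hochberg over the 11742 genes tested), 10 were tested and not called, and 7 had too few counts to be tested. Over all genes tested, 17.3% were lower and 14.4% were higher. The median log2 fold change was -2.70 over the 26 members tested and -0.11 over all genes. Members with few counts in fast MEF, such as Usp18 with 5 and Rtp4 with 4, entered the test through slow MEF. The median therefore leans toward members high in slow MEF.

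Of the 4 transcription factors, 3 fell. Stat2, a signal carrier of the type I receptor, had 5.36, 10.2, 8.98 and 2.65 CPM in fast MEF, against 46.1, 41.5, 46.0 and 31.9 CPM in slow MEF. Irf9, the DNA-binding subunit of the same complex, had 17.8, 15.7, 8.12 and 4.10 CPM in fast MEF, against 58.0, 47.0, 62.5 and 73.7 CPM in slow MEF. Irf7, which amplifies the production of type I interferon, had 1.36, 6.71, 1.21 and 2.33 CPM in fast MEF, against 13.2, 16.1, 24.9 and 11.3 CPM in slow MEF. For all 3 genes every fast MEF library lay below every slow MEF library, as for 16.8% of all genes tested. The log2 fold change was -2.74 ± 0.47 for Stat2 (SE; edgeR adjusted p = 0.00184), -2.55 ± 0.47 for Irf9 (edgeR adjusted p = 0.00252) and -2.65 ± 0.65 for Irf7 (edgeR adjusted p = 0.0108), and that of Irf7 was -3.44 without fast MEF replicate 2. Irf1, a factor that gamma interferon induces strongly, had 0.817, 3.13, 0 and 0.643 CPM in fast MEF and a mean of 5.51 CPM with an SD of 4.71 in slow MEF, with overlapping libraries (edgeR adjusted p = 0.137).

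The IFIT genes, whose proteins bind foreign RNA and block its translation, were among the members with the largest differences. Ifit3 had 0.363, 1.70, 2.25 and 0.161 CPM in fast MEF, against 65.4, 35.4, 14.6 and 24.7 CPM in slow MEF. Ifit1 had 1.27, 0.985, 0.518 and 0 CPM in fast MEF, against 24.5, 23.4, 9.25 and 16.6 CPM in slow MEF. Ifit2 had 0.817, 2.87, 0 and 0.402 CPM in fast MEF, against 13.5, 8.75, 10.5 and 7.12 CPM in slow MEF. No fast MEF library of the 3 genes reached the lowest slow MEF library. On the log2 scale Ifit3 fell by 5.14 ± 0.88, Ifit1 fell by 4.85 ± 0.93 and Ifit2 fell by 3.43 ± 0.96 (SE; edgeR adjusted p = 0.00171, 0.00316 and 0.0197). The call of Ifit2 was lost without fast MEF replicate 1 or 4, and its log2 fold change was -4.64 without replicate 2. Reads of Ifit3 may be shared with its near-identical neighbour Ifit3b, so its level is uncertain to that extent.

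In the ISG15 system, a ubiquitin-like tag and the enzymes around it, 1 of the 3 genes was called. Usp18, the protease that removes ISG15 and restrains the receptor, had 0.272, 0.179, 0 and 0 CPM in fast MEF, against 7.07, 6.32, 6.88 and 2.02 CPM in slow MEF. Its log2 fold change was -5.55 ± 1.07 (SE; edgeR adjusted p = 0.00327), and -6.31 without fast MEF replicate 1. Isg15 itself, the tag, had a mean of 0.884 CPM (SD 1.38) in fast MEF against 4.84 CPM (SD 2.54) in slow MEF, and its libraries overlapped (edgeR adjusted p = 0.132). Trim25, a ubiquitin ligase that activates the RNA sensor RIG-I, had 48.2, 61.6, 23.3 and 81.1 CPM in fast MEF, where slow MEF averaged 26.6 CPM (SD 10.1), with overlap (edgeR adjusted p = 0.153). Trim25 and Bst2 were the 2 of the 26 tested members with a positive fold change.

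Of the OAS genes, whose enzymes make the messenger that activates RNase L, only Oasl2 was counted well enough in these groups to be tested. Oasl2 had 1.54, 2.60, 3.28 and 0.482 CPM in fast MEF, against 21.0, 22.6, 16.6 and 26 CPM in slow MEF (log2 fold change -3.58 ± 0.63 SE, edgeR adjusted p = 0.00193). Oas1a, Oas2 and Oas3 stayed at or below 2.94 CPM in every library of both groups. The OAS block therefore divided into 1 gene that fell and 3 near the limit of counting.

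Among the remaining classes the calls were all downward. Rtp4, a chaperone-like protein with antiviral activity, had 0, 0.179, 0.345 and 0 CPM in fast MEF, against 1.48, 15.7, 8.25 and 1.35 CPM in slow MEF. Rtp4 fell by 5.90 ± 1.37 on the log2 scale (SE; edgeR adjusted p = 0.0083), with -5.01 without slow MEF replicate 2 and -6.68 without fast MEF replicate 3. The RNA sensor Ifih1 (MDA5) was also called, at -4.54 ± 1.38, but slow MEF replicate 1 alone had 54.9 CPM while the others had 1.54 to 2.43 CPM. Without that library the log2 fold change of Ifih1 was -1.72 and the call was lost, as it was without any 1 fast MEF library. The other RNA sensors Ddx58 (RIG-I) and Dhx58 (LGP2) were at -2.28 ± 0.84 (edgeR adjusted p = 0.0608) and -0.89 ± 1.11 (edgeR adjusted p = 0.578).

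The guanylate-binding GTPase Gbp2, which attacks the vacuoles of intracellular parasites, had 0.363, 0.895, 3.11 and 0.563 CPM in fast MEF, against 7.91, 18.9, 9.75 and 14.1 CPM in slow MEF. Its log2 fold change was -3.50 ± 0.80 (SE; edgeR adjusted p = 0.00768), and -4.48 without fast MEF replicate 3. Parp9 and Parp14, ADP-ribosylating proteins of the antiviral response, were at -2.21 ± 0.51 and -3.68 ± 1.23 (SE), both called, with libraries that did not overlap. The call of Parp14 was lost without any 1 library other than fast MEF replicate 3, and its value without that one was -4.54. The DNA-sensing proteins Ifi203 and Ifi204 (-4.52 ± 0.78 and -3.60 ± 0.96) and Ifi44 (-4.54 ± 0.99) were lower as well. Without slow MEF replicate 1 these stood at -3.60 for Ifi203 and -3.85 for Ifi44. Ifi44 was at -5.39 without fast MEF replicate 2, and Ifi204 was at -4.44 without fast MEF replicate 3 and lost its call without any 1 of the other 3. Ifi203 and Ifi204 belong to a family of near-identical copies, so reads may be split among them.

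Several members showed no call. Bst2 (tetherin, which holds budding viruses at the membrane) had 14.7, 6.80, 1.04 and 59.5 CPM in fast MEF, against 3.69, 15.2, 21.5 and 13.6 CPM in slow MEF. Isg20, an RNA exonuclease, had 0.182, 1.52, 0.345 and 7.72 CPM in fast MEF, against 13.8, 4.30, 1 and 33.2 CPM in slow MEF. Both overlapped. The chemokine Cxcl10, which draws in T cells, had no count in the 4 fast MEF libraries and 1.06, 13.2, 0.750 and 0.673 CPM in slow MEF. Over the groups this is at least 62.3-fold lower in fast MEF, against the floor of 3 counts per group, with most of the slow MEF counts in replicate 2, and it was not tested. Ifi35 and Xaf1, an apoptosis factor, were at -0.85 ± 0.81 and -0.69 ± 0.49 (edgeR adjusted p = 0.457 and 0.309).

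**Figure D2:**
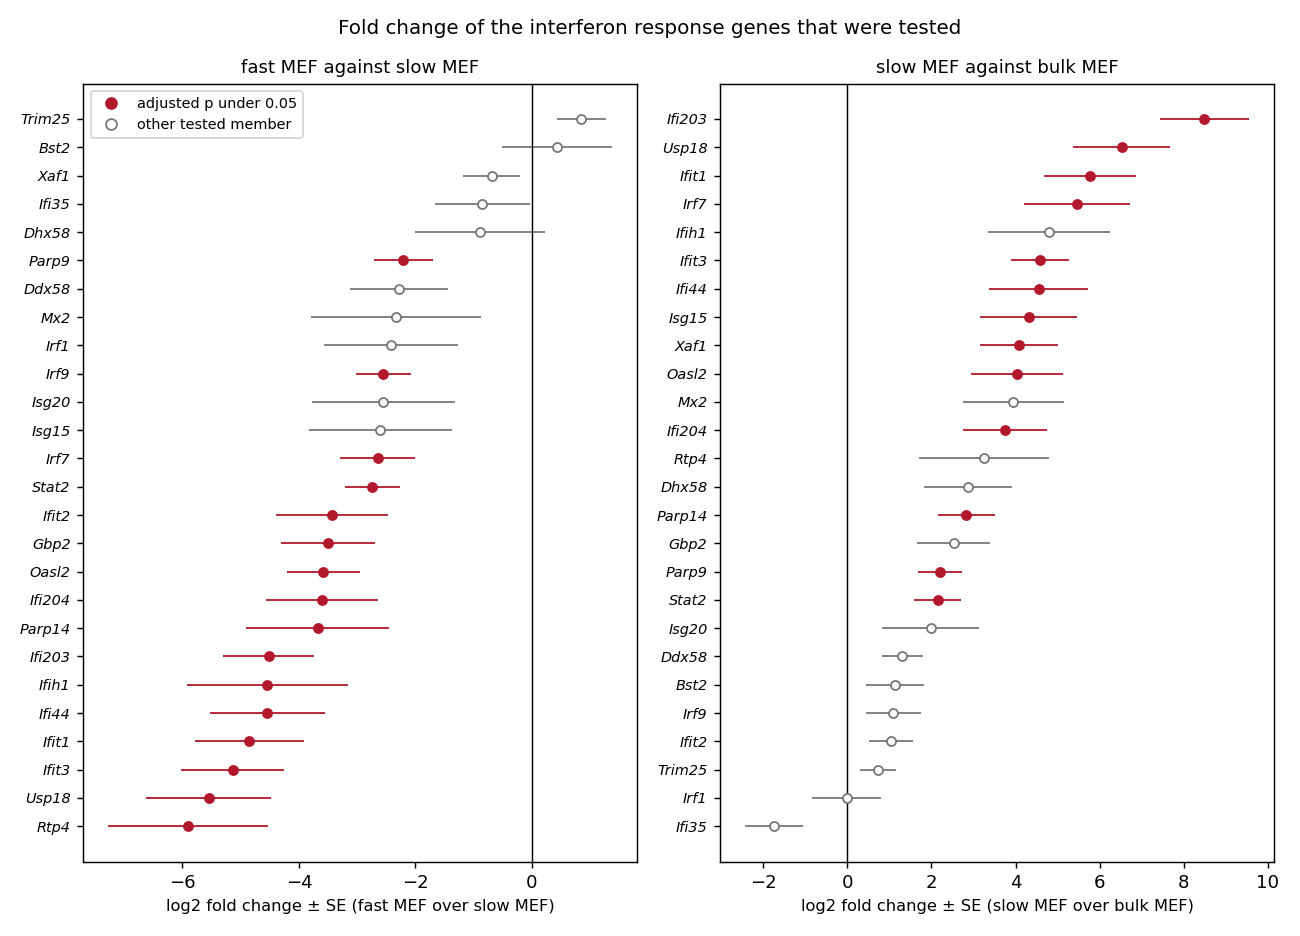
Points are log2 fold changes with SE bars for the members tested between fast and slow MEF (left) and between slow and bulk MEF (right), with filled points past an adjusted p of 0.05. On the left the 16 filled points all lie below 0, and on the right the 13 filled points all lie above 0, and both panels rest on the same slow MEF libraries.

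Counts of 16 lower members ranged from 12 to 20 with 1 library left out, and without fast MEF replicate 3 the calls were 1 higher and 19 lower. With all 24 libraries in 1 fit, 3 members passed, 2 of them among the 16, and with a stricter filter on low counts 10 of 15 tested members passed.

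Slow MEF also had more of these RNAs than untreated bulk MEF. Of the 33, 13 were higher in slow MEF and none was lower (edgeR, adjusted over 11253 genes), 13 were tested and not called, and 7 were too low. Over all genes tested, 5.51% were higher and 4.99% lower. The libraries of the 2 groups did not overlap for 17 of the 26 members tested, beside 18.7% of all genes. The median log2 fold change was 3.06 over the 26 members tested and 0.03 over all genes. Here too, members with few counts in bulk MEF, such as Usp18 and Ifi203 with 2 each, entered the test through slow MEF, and the median leans toward them. This comparison shares its slow MEF libraries with the preceding one, so the 11 members called in both are not 2 independent observations. They are 11 of the 16 lower in fast than in slow MEF and 11 of the 13 higher in slow than in bulk MEF.

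The members with the greatest fold change stood near 0 in bulk MEF. Ifi203 had 52.5, 13.7, 12.3 and 8.37 CPM in slow MEF, against 0.0964, 0, 0.101 and 0 CPM in bulk MEF. Usp18 had its slow MEF values of 2.02 to 7.07 CPM against 0, 0, 0.201 and 0 CPM in bulk MEF. Both genes had 2 counts in all of bulk MEF. The ratio of the pooled levels was 111 for Usp18, with a counting interval of 30.4 to 924, and 429 for Ifi203, with a lower limit of 118 (95%, counting error only). The fitted log2 fold changes, which depend on the prior count for such genes, were 8.49 ± 1.05 for Ifi203 and 6.52 ± 1.16 for Usp18 (SE; edgeR adjusted p = 0.000841 and 0.00573). Without slow MEF replicate 1 that of Ifi203 was 7.56, and without bulk MEF replicate 3 that of Usp18 was 8.82.

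The IFIT genes and Irf7 showed the same contrast with bulk MEF. Ifit1 had 9.25 to 24.5 CPM in slow MEF, against 0, 1.08, 0.201 and 0 CPM in bulk MEF (log2 fold change 5.77 ± 1.09 SE, edgeR adjusted p = 0.00746). Ifit3 had 14.6 to 65.4 CPM in slow MEF, against 0.579, 0.904, 1.51 and 2.96 CPM in bulk MEF (4.59 ± 0.69, edgeR adjusted p = 0.00226). Irf7 had 11.3 to 24.9 CPM in slow MEF, against 1.45, 0, 0 and 0 CPM in bulk MEF (5.47 ± 1.26, edgeR adjusted p = 0.0191). In each case the lowest slow MEF library was above the highest bulk MEF library. Ifit1 was at 7.86 without bulk MEF replicate 2, and Irf7 was at 10.37 without bulk MEF replicate 1, the only bulk MEF library with an Irf7 count. The Irf7 call was lost without slow MEF replicate 3. Ifit2, by contrast, was present in both groups, with 7.12 to 13.5 CPM in slow MEF and 3.51 to 7.42 CPM in bulk MEF, and was not called (1.05 ± 0.52, edgeR adjusted p = 0.228).

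Further calls were Ifi44 (4.55 ± 1.18), Isg15 (4.31 ± 1.16), Xaf1 (4.09 ± 0.93), Oasl2 (4.03 ± 1.09), Ifi204 (3.75 ± 1.0), Parp14 (2.83 ± 0.68), Parp9 (2.21 ± 0.52) and Stat2 (2.15 ± 0.56), all on the log2 scale with SE. Stat2 had 31.9 to 46.1 CPM in slow MEF and 2.70 to 20.3 CPM in bulk MEF. Xaf1 had 32.4, 13.5, 22.8 and 17.3 CPM in slow MEF, against 0.289, 0.452, 4.23 and 0.219 CPM in bulk MEF, and was at 6.02 without bulk MEF replicate 3. Of the 13 calls, 5 (Ifit1, Ifit3, Usp18, Ifi203 and Xaf1) were kept with any 1 library left out. Oasl2 (6.98 without bulk MEF replicate 4, the one library at 4.93 CPM), Ifi204 (4.35 without bulk MEF replicate 2), Ifi44 (3.82 without slow MEF replicate 1 and 5.90 without bulk MEF replicate 3), Isg15 (5.94 without bulk MEF replicate 2), Stat2 (2.80 without bulk MEF replicate 3), Parp9 and Parp14 each lost their call without 4 to 7 of the 8 libraries in turn.

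Irf9 and Irf1 were not called in slow against bulk MEF. Irf9 had 47.0 to 73.7 CPM in slow MEF, against 22.3, 64.7, 24.4 and 3.18 CPM in bulk MEF (1.10 ± 0.65, edgeR adjusted p = 0.302). Irf1 differed by -0.01 ± 0.82 (edgeR adjusted p = 0.998). Gbp3, a GTPase related to Gbp2, had 14.6, 1.46, 2.00 and 0.865 CPM in slow MEF and no count in bulk MEF, at least 60.8-fold higher over the groups, and was too low for the test. Gbp genes are near-identical copies, so this count may hold reads of others. Ifi35, which binds other induced proteins, ran the other way without a call, with 11.1 ± 5.76 CPM in slow MEF and 37.6 ± 37.4 CPM in bulk MEF (SD, n = 4 each; edgeR adjusted p = 0.135). The number of members called was 6 to 13 with 1 library left out, with 6 without slow MEF replicate 3 and 7 without slow MEF replicate 2, and it was 8 without slow MEF replicate 1 and 8 without bulk MEF replicate 1. It was 1 (Ifi203) with all 24 libraries in 1 fit and 8 with either a stricter filter or thinned counts.

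**Figure D3:**
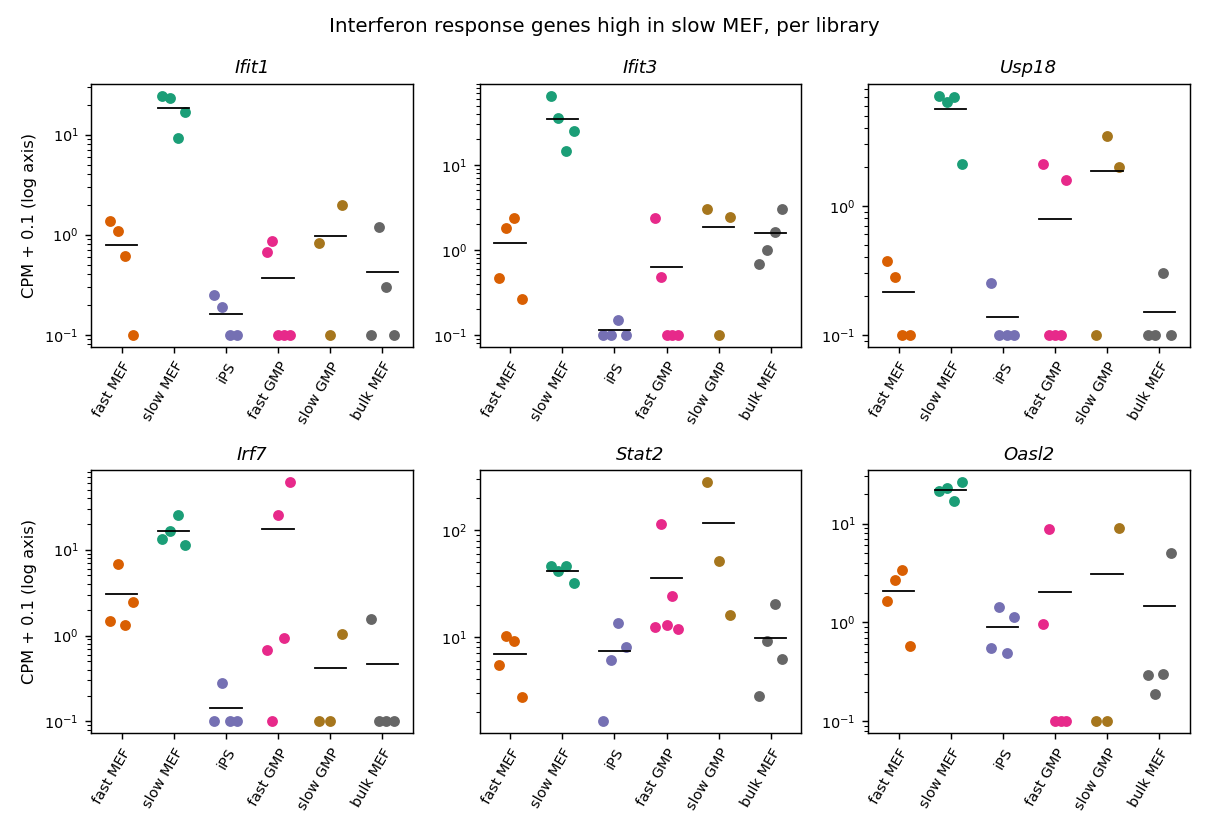
Each point is 1 library and each bar a group mean, as CPM + 0.1 on a log axis, for 6 members named among the results. In every panel the 4 slow MEF libraries stand above the fast MEF, iPS and bulk MEF libraries, while single GMP libraries reach them for Usp18, Irf7 and Stat2.

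Macrophages answer interferon strongly, and 12 macrophage markers were read beside these results. They summed to 10.3 to 31.8 CPM in fast MEF, to 2.79 to 153 CPM in slow MEF and to 195 to 338 CPM in bulk MEF. Aif1 was near the limit of counting in all 3 groups, with 0 counts in fast MEF, 8 in slow MEF and 3 in bulk MEF. Fcgr1 ran the other way, with means of 1.64 CPM in fast MEF and 0.170 CPM in slow MEF. In slow MEF replicates 1 to 4 the markers summed to 51.8, 153, 55.8 and 2.79 CPM, and the 33 genes to 548, 411, 386 and 375 CPM. In fast against slow MEF 5 of the 12 markers were tested, all 5 with negative fold changes, 1 of them called, and their median was -2.91. In slow against bulk MEF 8 were tested, all 8 with negative fold changes and none called, and their median was -1.80. The fibroblast and keratinocyte marker sums given above differ between fast and slow MEF as well, and the part of these and of the macrophage markers in the differences of the interferon genes was not tested.

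Fast MEF differed from bulk MEF in few of the genes. Of the 33, 2 were higher, none was lower, 13 were tested and not called, and 18 were too low, against 16.5% of 11335 genes higher and 18.4% lower. The median over the 15 tested members was -0.49, against -0.05 over all genes. Trim25 had 48.2, 61.6, 23.3 and 81.1 CPM in fast MEF, against 17.4, 10.2, 21.1 and 17.1 CPM in bulk MEF (log2 fold change 1.59 ± 0.42 SE, edgeR adjusted p = 0.0128). Xaf1 had 12.5, 23.3, 16.6 and 6.19 CPM in fast MEF, against the bulk MEF values of 0.219 to 4.23 CPM (3.39 ± 0.98, edgeR adjusted p = 0.0211). Neither gene's libraries overlapped, and 3 of the 15 members tested did not overlap, beside 37.1% of all genes. Xaf1 was at 5.37 without bulk MEF replicate 3, and its call was lost without fast MEF replicate 2 or without bulk MEF replicate 2.

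Xaf1 was therefore the member called above bulk MEF in both induced groups. Of the 13 members called higher in slow than bulk MEF, 6 were tested here, and the other 5 beside Xaf1 were not called. They were Irf7 (2.85 ± 1.38, edgeR adjusted p = 0.136), Stat2 (-0.58 ± 0.69, edgeR adjusted p = 0.546), Ifit3 (-0.49 ± 0.95, edgeR adjusted p = 0.726), Oasl2 (0.50 ± 1.21, edgeR adjusted p = 0.784) and Parp9 (0.03 ± 0.61, edgeR adjusted p = 0.976). Ifi203, too low for the test, had a ratio of pooled levels of fast to bulk MEF of 21.5, with a counting interval of 5.61 to 184, over 2 counts in bulk MEF. Ifit2 and Irf1 had negative fold changes without a call (-2.36 ± 0.96 and -2.38 ± 0.98, edgeR adjusted p = 0.082 and 0.0823). DESeq2 called 5 members, 2 higher and 3 lower, beside 4696 of 11335 genes. With 1 library left out the count was 1 to 4, with 4 without bulk MEF replicate 1, 4 without bulk MEF replicate 4 and 1 without bulk MEF replicate 2. With all 24 libraries in 1 fit it was 1, which was neither Trim25 nor Xaf1.

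In iPS cells some members were higher and some lower. Against bulk MEF, 5 were higher, 2 were lower, 9 were tested and not called, and 17 were too low, where 24.1% of 11736 genes were higher and 23.3% lower. The median was 0.78 over the 16 tested members and 0.10 over all genes. The genes that rose were Oas1a, Oas2, Oas3, Trim25 and Irf1, and those that fell were Ifit2 and Ifi35.

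Oas1a had 3.33, 4.69, 13.7 and 5.13 CPM in iPS cells, against 0, 0, 0.201 and 0 CPM in bulk MEF. Oas2 had 4.24, 0.973, 2.23 and 5.69 CPM in iPS cells, against 0, 0, 0.302 and 0 CPM in bulk MEF. Oas3 had 3.33, 1.33, 5.80 and 5.53 CPM in iPS cells, against 0, 0.181, 0.201 and 0 CPM in bulk MEF. No bulk MEF library reached an iPS library in any of them. Libraries did not overlap for 6 of the 16 members tested, beside 47.3% of all genes. The log2 fold changes were 6.75 ± 1.13, 5.23 ± 1.20 and 5.17 ± 1.03 for Oas1a, Oas2 and Oas3 (SE; edgeR adjusted p = 0.000913, 0.00528 and 0.00228). Bulk MEF held 2 counts of Oas1a and 3 of Oas2, and the ratio of the pooled levels was 41.4 for Oas2, with a counting interval of 13.9 to 203, and 167 for Oas1a, with a lower limit of 45.8. Without bulk MEF replicate 3, Oas1a was at 9.27 and Oas2 at 8.25, and without iPS replicate 3 Oas1a was at 6.07. Reads of Oas1a may be shared with near-identical copies such as Oas1g, so its level is uncertain.

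Trim25 had 87.4, 82.7, 104 and 95.1 CPM in iPS cells, against 10.2 to 21.1 CPM in bulk MEF (log2 fold change 2.45 ± 0.33 SE, edgeR adjusted p = 0.000235). Irf1 had 16.4, 21.1, 17.6 and 9.21 CPM in iPS cells, against 5.01, 5.33, 2.32 and 9.97 CPM in bulk MEF, and these overlapped (1.48 ± 0.53, edgeR adjusted p = 0.0401). The Irf1 call was lost without any 1 of iPS replicates 1, 2 and 3 or of bulk MEF replicates 1, 2 and 3, and its value ranged from 1.22 to 1.87 over all single libraries left out. Ifit2 had 0.152, 0.177, 0 and 0.881 CPM in iPS cells, against 7.42, 3.80, 4.93 and 3.51 CPM in bulk MEF (-4.0 ± 1.05, edgeR adjusted p = 0.0101), and -5.57 without iPS replicate 4. Ifi35 had 5.30, 11.9, 1.49 and 2.88 CPM in iPS cells, against 8.97, 15.5, 34.9 and 91.2 CPM in bulk MEF, with overlap (-2.83 ± 0.84, edgeR adjusted p = 0.019). It was at -1.95 with no call without bulk MEF replicate 4, at -3.56 without iPS replicate 2, and lost its call without iPS replicate 4. With a stricter filter or with thinned counts 3 members passed, 2 higher and 1 lower.

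Several genes of the list were at or near 0 in iPS cells. Ifih1 had no count in the 4 iPS libraries, at least 9.57-fold lower than in bulk MEF and at least 13.3-fold lower than in fast MEF over the groups, and Mx1, a dynamin-like GTPase that traps viral particles, had none either. Ifit3 had 1 count in iPS cells and 58 in bulk MEF. Ifit1, Irf7 and Usp18 had at most 0.177 CPM in any iPS library. These genes were too low in iPS cells and bulk MEF to be tested.

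Set against fast MEF, iPS cells had 3 members higher and 2 lower, 13 were tested and not called, and 15 were too low, where 18.8% of 11882 genes were higher and 19.7% lower. Irf1 rose by 3.79 ± 0.90 on the log2 scale (SE; edgeR adjusted p = 0.00801), from the iPS values above of 9.21 to 21.1 CPM against 0.817, 3.13, 0 and 0.643 CPM in fast MEF. Oas1a was at 3.07 ± 0.87 (edgeR adjusted p = 0.0191) and Oas2 at 3.51 ± 1.25 (edgeR adjusted p = 0.0488), with fast MEF at 0.322 to 2.07 CPM of Oas1a and 0 to 0.863 CPM of Oas2. Neither pair overlapped. In this comparison libraries did not overlap for 7 of the 18 members tested, beside 39.9% of all genes. Irf7 fell by 5.76 ± 1.24 (edgeR adjusted p = 0.00499), with 0, 0.177, 0 and 0 CPM in iPS cells. Its 2 iPS counts give a ratio of fast MEF to iPS of 78.8, with a counting interval of 21.4 to 658. Xaf1 had 0.606, 0.354, 1.04 and 2.08 CPM in iPS cells, against 6.19 to 23.3 CPM in fast MEF (-3.81 ± 0.71, edgeR adjusted p = 0.00226).

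Single libraries moved several of these values. Irf1 was at 4.91 and Irf7 at -4.96 without fast MEF replicate 2, Irf7 at -8.04 without iPS replicate 2, and Xaf1 at -4.42 without iPS replicate 4. Oas1a was at 4.14 and Oas2 at 4.72 without fast MEF replicate 3, and Oas1a was at 2.45 with no call without iPS replicate 3. The call of Oas1a was also lost without fast MEF replicate 1 or 4, and that of Oas2 without any 1 library other than fast MEF replicate 3. The count of members called was 3 to 7 with 1 library left out, with 3 without fast MEF replicate 1 and 3 without iPS replicate 3, was 2 with a stricter filter or thinned counts, and was 3 with all 24 libraries in 1 fit. The median of the 18 tested members was 0.46, against 0.00 over all genes.

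**Figure D4:**
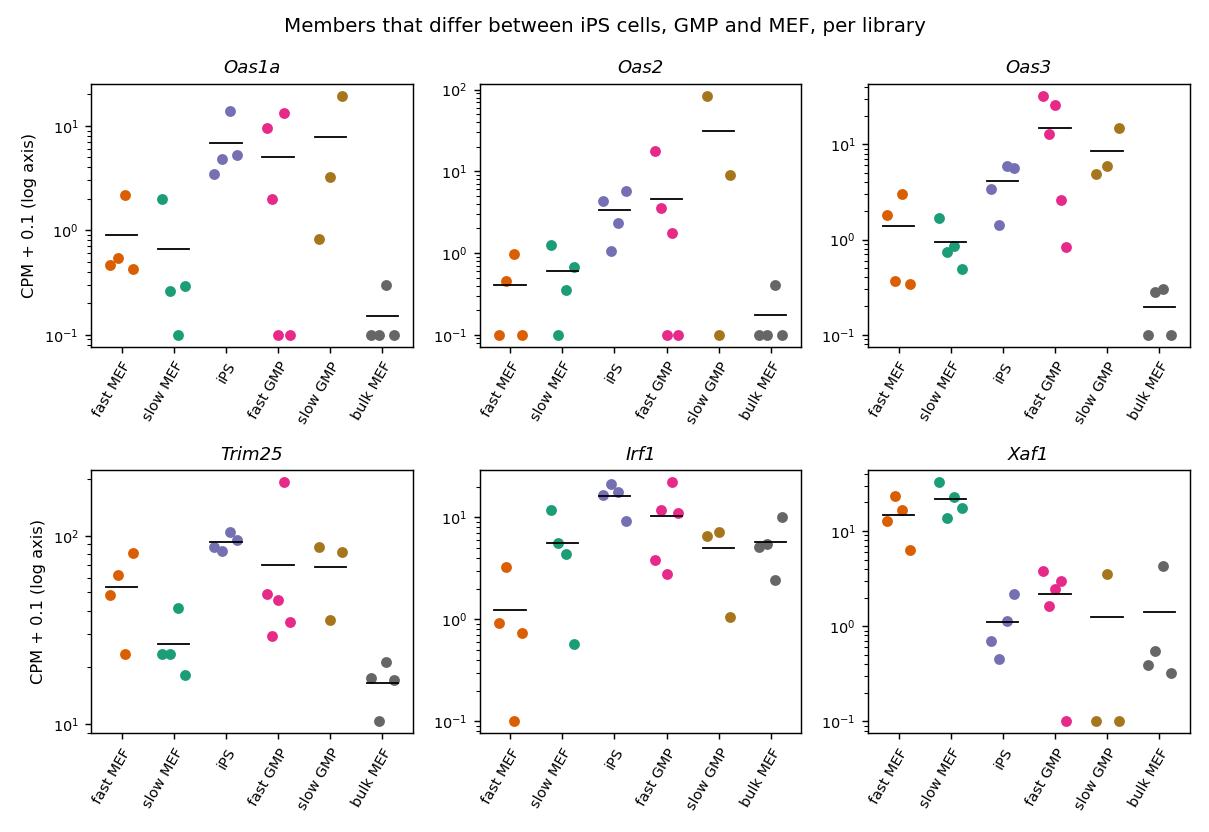
Each point is 1 library and each bar a group mean, as CPM + 0.1 on a log axis. Oas1a, Oas2 and Oas3 stand above the bulk MEF libraries in iPS cells, GMP libraries range from 0 to 84.4 CPM of Oas2, and Xaf1 is high in fast and slow MEF.

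The GMP libraries, fast and slow pooled in 1 contrast, had 9 members higher than bulk MEF and none lower, with 12 tested and not called and 12 too low. Over 12170 genes tested, 11.5% were higher and 9.79% lower. The median was 2.16 over the 21 tested members and 0.18 over all genes, and DESeq2's size factors shifted all genes by 0.11 and upper-quartile factors by 0.20 on the log2 scale.

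Ifi203 had 15.8, 16.8, 10.8, 14.9 and 9.59 CPM in fast GMP and 17.5, 24.8 and 22.2 CPM in slow GMP, against at most 0.101 CPM in bulk MEF. Its log2 fold change was 7.92 ± 1.17 (SE; edgeR adjusted p = 0.000332), and the ratio of the pooled levels was 343 over the 2 counts of bulk MEF, with a lower limit of 94.3. Oas3 had 32.4, 12.6, 25.6, 2.49 and 0.738 CPM in fast GMP and 4.73, 5.89 and 14.6 CPM in slow GMP, against at most 0.201 CPM in bulk MEF (6.58 ± 1.49, edgeR adjusted p = 0.00705). Trim25 had 49.1, 29.4, 45.5, 192 and 34.7 CPM in fast GMP and 86.9, 35.7 and 81.7 CPM in slow GMP, against 10.2 to 21.1 CPM in bulk MEF (2.16 ± 0.74, edgeR adjusted p = 0.0488). These 3 of the 21 members tested did not overlap with bulk MEF. The share over all genes was not counted, so the 3 of 21 cannot be read as a result about the members.

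The other 6 called members overlapped with bulk MEF, and some GMP libraries had no or few counts of them. Oas2 had 17.5, 3.43, 0, 1.66 and 0 CPM in fast GMP and 84.4, 0 and 8.97 CPM in slow GMP (6.97 ± 2.15, edgeR adjusted p = 0.032), and over the 3 counts of bulk MEF its ratio was 210, with a lower limit of 71.1. Parp14 had 23.8, 7.63, 10.1, 2.90 and 1.48 CPM in fast GMP and 0.727, 87.5 and 7.08 CPM in slow GMP, against 0.579, 1.08, 0.805 and 0.658 CPM in bulk MEF (4.46 ± 1.30, edgeR adjusted p = 0.0248). Gbp3 had 3.16, 0.763, 1.01, 0.829 and 0 CPM in fast GMP and 7.27, 1.55 and 4.25 CPM in slow GMP, and with no count in bulk MEF was at least 33.5-fold higher in GMP (edgeR adjusted p = 0.01). Dhx58 had 12.6, 6.11, 10.4, 1.66 and 0.738 CPM in fast GMP and 24.7, 31.3 and 33.5 CPM in slow GMP, against 0.868, 0.181, 0 and 1.53 CPM in bulk MEF (4.47 ± 1.26, edgeR adjusted p = 0.0217). Oas1a (6.42 ± 1.94) and Mx1 (5.33 ± 1.83, edgeR adjusted p = 0.0499) made up the rest, each on 2 counts in bulk MEF, which give ratios of 119 (32.2 to 993) and 53.2 (14 to 450).

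Of the 9 called members, Ifi203, Oas3 and Gbp3 kept their call with any 1 of the 12 libraries left out, while Trim25 lost it without any 1 of 8. Without bulk MEF replicate 1 or 2 the count of members called was 3, without bulk MEF replicate 3 or 4 it was 4, and over all single libraries it was 3 to 9. Oas2 was at 5.44 without slow GMP replicate 1 and 8.89 without bulk MEF replicate 3, Parp14 at 2.86 without slow GMP replicate 2, and Oas1a at 5.42 without slow GMP replicate 3 and 7.91 without bulk MEF replicate 3. Mx1 was at 4.67 without slow GMP replicate 3 and 6.84 without bulk MEF replicate 4, and Dhx58 was at 5.29 without bulk MEF replicate 4. The 12 macrophage markers summed to 942 to 2218 CPM in fast GMP, 758 to 1472 CPM in slow GMP and 195 to 338 CPM in bulk MEF. Of the 11 tested, 6 were called higher in GMP and 1 lower, beside 11.5% and 9.79% of all genes, and 3 had negative fold changes. C1qa, C1qb and C1qc ran against the sum. They averaged 1.32, 3.90 and 47.3 CPM in fast GMP and 0, 14.1 and 34.1 CPM in slow GMP, against 25.95, 51.8 and 118 CPM in bulk MEF. Aif1 averaged 1.36 CPM in fast GMP and 0.944 CPM in slow GMP, on 22 and 6 counts. The part of the macrophage markers in the calls of members was not tested.

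Between fast and slow GMP no member was called, 18 were tested and 15 were too low, and of all 10057 genes tested 0% passed in either direction. At an unadjusted p under 0.05, edgeR gave 0 of the 18 members and 742 genes, while DESeq2 gave 0 members and 97 genes after adjustment, and 2 members before it. Dhx58, Bst2 and Ifi203, 3 of the 18, had fast GMP libraries that all lay below the slow GMP libraries, as did 1.86% of all genes tested, while 1.65% lay above. Dhx58 averaged 6.31 ± 5.24 CPM in fast GMP and 29.9 ± 4.58 CPM in slow GMP (log2 fold change -2.20 ± 1.09 SE, edgeR adjusted p = 0.674). Bst2 had 5.45, 5.34, 2.02, 5.39 and 0 CPM in fast GMP, against 25.8, 9.30 and 24.1 CPM in slow GMP (-2.40 ± 1.23, edgeR adjusted p = 0.679). Ifi203 differed by -0.63 ± 0.91 (edgeR adjusted p = 0.883).

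Single GMP libraries carried very high values of single members. Stat2 had 12.3, 115, 12.8, 24.0 and 11.8 CPM in fast GMP and 281, 51.2 and 16.1 CPM in slow GMP. Irf9 had 11.8, 12.6, 36.4, 2.49 and 32.5 CPM in fast GMP and 176, 8.68 and 1.89 CPM in slow GMP. Ddx58 had 6.31, 1.53, 0.673, 173 and 5.90 CPM in fast GMP and 4.00, 23.9 and 1.89 CPM in slow GMP. Thus slow GMP replicate 1 was high in Stat2, Irf9 and Oas2, fast GMP replicate 4 in Ddx58 and Trim25, and slow GMP replicate 2 in Parp14. Irf7 had 0.574, 0, 24.9, 0.829 and 60.5 CPM in fast GMP and 0, 0 and 0.945 CPM in slow GMP, and was too low for the test.

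The test of whether the difference between fast and slow cells differed between MEF and GMP called none of the 30 members tested, against 0.601% of 13814 genes higher and 0.796% lower. At an unadjusted p under 0.05, edgeR gave 6 of the 30 members, beside 20.1% of all genes. All 6 had a more negative difference in MEF. DESeq2 called 4 members after adjustment, also negative, beside 1563 of 13814 genes. With all 24 libraries in 1 fit 2 members were called, beside 1069 genes, and without fast GMP replicate 1 it was 1 member. Cxcl10, with no count in fast MEF and 1 in slow GMP, had the most negative fitted value (-12.61 ± 3.42, edgeR adjusted p = 0.0693). It was followed by Gbp2, with no count in slow GMP (-9.37 ± 2.64, edgeR adjusted p = 0.074). Irf7, with 2 counts in slow GMP, came next (-8.53 ± 2.49, edgeR adjusted p = 0.0779). These fitted values depend on the prior count. In the reported fit the difference between fast and slow cells is thus not shown to differ between the 2 cell types. A lower level in fast GMP is not shown either, since no member was called between fast and slow GMP. The median was -2.06 over the members tested and -0.33 over all genes, and DESeq2's size factors shifted all genes by -0.15.

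The ligands gave almost no counts. Of 21 interferon genes of types I, II and III, slow MEF had 0 counts in 4 libraries, which allows up to 0.0746 CPM for the group. Fast MEF had 2 counts, iPS cells 3, fast GMP 24, slow GMP 12 and bulk MEF 6, and none was tested. Ifnb1, the interferon that fibroblasts make first, had 2 counts in fast GMP and 1 in bulk MEF and none in fast MEF, slow MEF, iPS cells or slow GMP. The Ifna genes are near-identical copies, so single counts among them are uncertain.

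Several receptor subunits and kinases were lower in fast MEF, against slow MEF, and in iPS cells, against bulk MEF. Of 9 such genes, 4 were lower and 2 (Tyk2 and Il28ra, of the type III receptor) higher in fast than in slow MEF, where 17.3% of all genes were lower and 14.4% higher. In slow against bulk MEF 1 of 8 tested (Jak2) was higher and none lower, where 5.51% of all genes were higher and 4.99% lower. In iPS cells against bulk MEF 6 of the 9 were lower and 1 higher, beside 23.3% and 24.1% of all genes. In fast against bulk MEF 3 of the 9 were lower and 1 higher, beside 18.4% and 16.5% of all genes. In iPS cells against fast MEF 5 of the 9 were lower and none higher, beside 19.7% and 18.8% of all genes. Jak2, a kinase of the gamma interferon receptor and of many cytokine receptors, was at -3.21 ± 0.70 in fast against slow MEF and at 2.95 ± 0.41 in slow against bulk MEF (edgeR adjusted p = 0.00615 and 0.0015). It averaged 11.7 ± 11.2 CPM in fast MEF, 101 ± 48.1 CPM in slow MEF, 1.72 ± 0.743 CPM in iPS cells and 13.4 ± 2.43 CPM in bulk MEF (SD, n = 4 each).

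The type I receptor subunit Ifnar1 was not called in any comparison, with group means of 29.8 to 60.4 CPM. Its partner Ifnar2 averaged 10.7 ± 5.62 CPM in fast MEF and 60.4 ± 55.9 CPM in slow MEF, where replicates ranged from 28.8 to 144 CPM, and 1.90 ± 1.31 CPM in iPS cells and 33.8 ± 11 CPM in bulk MEF (SD, n = 4 each). Ifnar2 fell by 2.66 ± 0.63 in fast against slow MEF and fell by 4.17 ± 0.61 in iPS cells against bulk MEF (SE; edgeR adjusted p = 0.00947 and 0.000439). Ifngr2 had 4.45, 6.27, 3.63 and 1.93 CPM in fast MEF, against 40.0, 46.6, 64.8 and 51.3 CPM in slow MEF (-3.78 ± 0.44, edgeR adjusted p = 0.000208). In iPS cells it had 2.12, 1.50, 5.16 and 0.961 CPM, against 61.4, 81.4, 89.3 and 73.6 CPM in bulk MEF (-4.99 ± 0.56, edgeR adjusted p = 8.9e-05). Ifngr2 was also the 1 of these 9 genes called in the test of fast against slow between cell types (-5.18 ± 0.97, edgeR adjusted p = 0.0115).

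Ifngr1 was at -2.27 ± 0.50 and Jak1 at -0.66 ± 0.26 in fast against slow MEF (edgeR adjusted p = 0.00663 and 0.0749), and at -3.07 ± 0.53 and -1.77 ± 0.38 in iPS cells against bulk MEF (edgeR adjusted p = 0.00103 and 0.0038). Tyk2 ran the other way, at 2.13 ± 0.51 in fast against slow MEF and 2.61 ± 0.70 in iPS cells against bulk MEF (edgeR adjusted p = 0.0095 and 0.0118). Its mean level was 38.1 ± 18.9 CPM in fast MEF, 8.02 ± 3.71 CPM in slow MEF, 42.9 ± 27.2 CPM in iPS cells and 6.82 ± 5.15 CPM in bulk MEF (SD, n = 4 each). Il10rb, shared by the type III receptor and the interleukin 10 receptor, was at -5.06 ± 0.91 in iPS cells against bulk MEF (edgeR adjusted p = 0.00132). In GMP against bulk MEF none of the 9 was called, against the 11.5% and 9.79% of all genes given above.

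**Figure D5:**
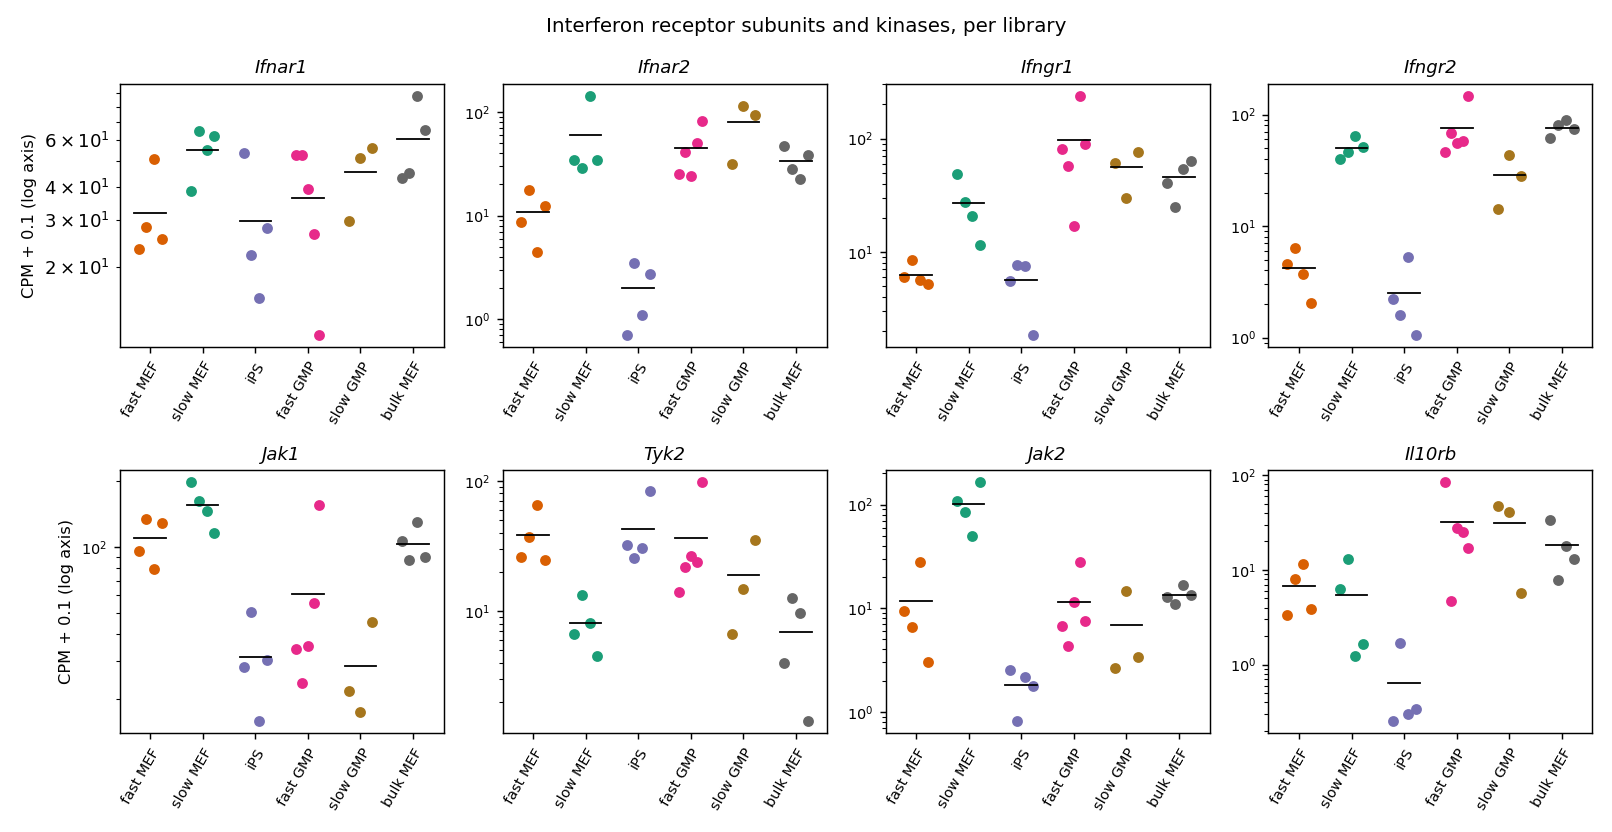
Each point is 1 library and each bar a group mean, as CPM + 0.1 on a log axis, for 8 receptor subunits and kinases. Ifngr2 and Jak2 lie lower in fast MEF and iPS cells than in slow MEF, Tyk2 lies higher there, and Ifnar1 overlaps between all groups.

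A list of 48 other interferon-induced genes outside the 33, also chosen with earlier results of these data known, was read in the same fits. In fast against slow MEF 30 were tested, of which 12 were lower, none was higher and 18 were not called, where 17.3% of all genes were lower and 14.4% higher. In slow against bulk MEF 31 were tested, of which 10 were higher, none was lower and 21 were not called, where 5.51% of all genes were higher and 4.99% lower. Trim30a and Gbp6 were called in both, at -6.65 ± 1.09 and -4.99 ± 1.23 in fast against slow MEF, where fast MEF held 2 counts of Trim30a, so that its fitted value depends on the prior count. In slow against bulk MEF Trim30a was at 4.51 ± 1.26, and Gbp6 had no count in bulk MEF, so that its fitted value is not given. Irgm2, a GTPase of the same defence as Gbp2, averaged 0.828 ± 0.618 CPM in fast MEF, 10.2 ± 1.25 CPM in slow MEF and 0.204 ± 0.338 CPM in bulk MEF (SD, n = 4 each). In iPS cells 4 of the 25 tested were higher and 7 lower than in bulk MEF, beside 24.1% and 23.3% of all genes, and in GMP 12 of the 31 tested were higher and 1 lower, beside 11.5% and 9.79%.

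Of 15 sensing adaptors and kinases, 11 were tested in fast against slow MEF, where 2 were higher and 2 lower, beside 14.4% and 17.3% of all genes. E330016A19Rik (2.57 ± 0.60, edgeR adjusted p = 0.00845) and Mavs, the mitochondrial adaptor of the RNA sensors (1.75 ± 0.33, edgeR adjusted p = 0.00297), rose. Tmem173 (STING), the adaptor for cytosolic DNA (-2.37 ± 0.63, edgeR adjusted p = 0.016), and Ticam1 (TRIF), an adaptor of Toll-like receptors (-1.43 ± 0.24, edgeR adjusted p = 0.00142), fell. In slow against bulk MEF 1 of 11 tested was called, beside 5.51% of all genes higher, and it was Eif2ak2 (PKR), which stops translation on double-stranded RNA, at 2.39 ± 0.48 (edgeR adjusted p = 0.01). In iPS cells against bulk MEF 1 of 12 tested was higher and 2 were lower, beside 24.1% and 23.3% of all genes. Zbp1, a sensor of Z-form nucleic acid, rose (6.94 ± 1.22, edgeR adjusted p = 0.00119), while Tmem173 fell by 4.75 ± 0.70 (edgeR adjusted p = 0.000437) and Ticam1 fell by 3.14 ± 0.58 (edgeR adjusted p = 0.00159). Zbp1 averaged 10.9 ± 7.94 CPM in iPS cells and 0.0755 ± 0.151 CPM in bulk MEF (SD, n = 4 each). Bulk MEF held 3 counts of Zbp1, against 633 in iPS cells, so its fitted value depends on the prior count too. Of 16 negative regulators, 15 were tested in fast against slow MEF, where 3 were lower and 2 higher, beside 17.3% and 14.4% of all genes. Socs1, which blocks the receptor kinases, fell by 5.21 ± 1.17 (edgeR adjusted p = 0.0071), Irf2bp2, a co-repressor, by 1.89 ± 0.44 (edgeR adjusted p = 0.00903), and Adar, which edits double-stranded RNA, by 1.25 ± 0.42 (edgeR adjusted p = 0.045). Rnaseh2a, a subunit of the RNase that clears RNA from DNA hybrids, rose by 2.07 ± 0.43 (edgeR adjusted p = 0.00456), and Samhd1, which breaks down deoxynucleotides, by 0.87 ± 0.24 (edgeR adjusted p = 0.0182).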

How the data were processed

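RNA of 24 libraries was measured, and the deposited table holds raw counts for 23283 genes, whole numbers without any normalization. CASAVA 1.8.2, HTSeq, TopHat2 2.0.4 and build mm9 are named in the submitters' processing notes. The annotation and whether counting used strand were not found in the labels or the table, so reads of a gene and an antisense or overlapping partner cannot be told apart. Per the labels' protocols, mRNA was primed with oligo-dT and the cDNA amplified. Groups, taken from the labels, were compared with edgeR 4.0.16 in R 4.3.3 (quasi-likelihood, robust, TMM factors, filterByExpr), using only the groups compared, without a block, two-sided, with Benjamini-Hochberg adjustment over all genes tested and a threshold of 0.05. The filter keeps a gene that is counted well in only a single group compared. Medians over tested members can therefore lean toward members high in that group. A test of fast against slow between cell types used 16 libraries. CPM values use TMM factors over all 24 libraries. Because no gene lengths were used, levels were not compared between genes. Where a group had no count, 3 counts for the group were used as its upper limit. These bounds and the exact 95% intervals cover counting error only, because reads of amplified cDNA can repeat 1 molecule. No 2 libraries of a group (37 pairs) held the same counts. The test was tried on simulated counts.

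The members and gene lists were chosen with earlier results of these data known. All members may be named. Values in every library were given for the 2 best counted members of each role and for up to 4 members with the highest and 4 with the lowest fold change among the called members of a comparison whose libraries did not overlap. In the pathway lists, ligands, receptor subunits, Jak1, Tyk2 and up to 3 called genes of a list with the largest change were named. Of 50 further induced genes listed, 48 were matched. From the list of receptors and kinases the 9 receptor subunits and kinases were counted, and 1 other gene is not reported here. The library values of Oasl2 and Ifih1, Ticam1, and Irgm2, Adar and Samhd1 in fast against slow MEF were chosen after their values were seen. So were the markers Aif1, Fcgr1, C1qa, C1qb and C1qc and the means of the 7 keratinocyte markers. Alternatives were DESeq2 size factors, upper-quartile factors, no filter, a stricter filter of 5 CPM, DESeq2 1.42.0, a replicate block, all 24 libraries in 1 fit, no Rn45s and Lars2, thinned counts, CPM on raw totals and each library left out. Promoters came from RefSeq tables for GRCm38.p6, whose coordinates are not those of mm9. Tables and plots used pandas 2.3.3, scipy 1.17.1 and matplotlib 3.10.9.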

Additional observations from a re-analysis of the deposited data

Results flagged for a closer look

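A library was singled out where its gap to the nearest other library of its group of 4 or 5 was large for the group's range, which chance alone gives in about 1 in 20 groups. This held in 27 of 127 groups of gene and library set looked at, many of them genes with 1 library above 0. No explanation is given for any.

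In slow MEF, Usp18 stood low in replicate 4 at 2.02 CPM (others 6.32 to 7.07). Replicate 1 stood high for Gbp3 at 14.6 CPM (others 0.865 to 2.00), Ifi203 at 52.5 CPM (8.37 to 13.7) and Oas1a at 1.90 CPM (0 to 0.192), and replicate 2 for Cxcl10 at 13.2 CPM (0.673 to 1.06). In fast MEF, Dhx58 was at 8.81 CPM in replicate 1 (0 to 1.45) and Oas1a at 2.07 CPM in replicate 3 (0.322 to 0.448).

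In iPS cells, Ddx58 was at 33.5 CPM in replicate 3 (others 8.81 to 12.4). Ifit3 at 0.0496 CPM in replicate 3, Usp18 at 0.152 CPM in replicate 1, and Rtp4 and Irf7 each at 0.177 CPM in replicate 2 were alone above 0.

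In fast GMP, Stat2 was at 115 CPM in replicate 2 (others 11.8 to 24.0), and replicate 4 held Ddx58 at 173 CPM (0.673 to 6.31) and Trim25 at 192 CPM (29.4 to 49.1). Replicate 1 held Cxcl10 at 21.8 CPM (0 to 3.82), Oas2 at 17.5 CPM (0 to 3.43) and Ifit3 at 2.30 CPM (0 to 0.382).

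In bulk MEF, replicate 3 held Gbp2 at 6.85 CPM (others 0.542 to 0.877), Xaf1 at 4.23 CPM (0.219 to 0.452), Oas2 at 0.302 CPM, Usp18 at 0.201 CPM and Oas1a at 0.201 CPM, the last 3 alone above 0. Replicate 4 held Isg20 at 10.9 CPM (0.289 to 1.31) and Rtp4 at 2.85 CPM (others 0). Replicate 1 held Irf7 at 1.45 CPM and Cxcl10 at 0.386 CPM (others 0).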

How the results depend on the processing

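Across 148 alternative counts of members called, 119 were within 1.5 times the reported count. The stricter filter, which leaves fewer members to test, gave 10 for fast against slow MEF, 8 for slow against bulk MEF, 3 for iPS against bulk MEF and 2 for iPS against fast MEF. Thinned counts gave 8, 3 and 2 for the last 3 of these. With all 24 libraries in 1 fit the counts were 3 for fast against slow MEF, 1 for slow against bulk MEF, 1 for fast against bulk MEF, 3 for iPS against fast MEF and 2 for fast against slow between cell types. DESeq2 gave 5 for fast against bulk MEF and 4 for the test between cell types. The cause of the changes other than with the filter was not tested. With 1 library left out the counts were 12 to 20 for fast against slow MEF, 6 to 13 for slow against bulk MEF, 1 to 4 for fast against bulk MEF, 6 to 7 for iPS against bulk MEF, 3 to 7 for iPS against fast MEF, 0 to 0 for fast against slow GMP, 3 to 9 for GMP against bulk MEF and 0 to 1 between cell types. Same-numbered replicates did not deviate together (correlations of -0.061 to 0.074), so a block on the number is no pairing. The replicate block gave 16, 11, 2, 5, 5, 0, 5 and 0 members for the 8 comparisons as just listed. Over all genes, DESeq2 called 1976 against 1181 for slow against bulk MEF, 97 against 0 for fast against slow GMP and 1563 against 193 between cell types, where the block called 92. All 24 libraries in 1 fit called 1246, 56, 1513, 3170, 1675, 385, 5040 and 1069 genes in the listed order, against 3726, 1181, 3958, 5566, 4568, 0, 2594 and 193 in the reported fits. Of 877 alternative fold changes of called members 0 changed sign, and 148 of 150 levels on raw totals stayed within 1 SD.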
